A study of Mus musculus with 18 samples.

Results

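NRF2 and its antioxidant target genes were followed through the livers of lean and obese mice, with and without methotrexate. The set holds 10 genes chosen by name: Nfe2l2, which encodes NRF2, and the 9 targets Nqo1, Hmox1, Gclc, Gclm, Slc7a11, Gsr, Srxn1, Txnrd1 and G6pdx. They are 10 of the 21153 genes named on the array and are read by 12 of its 39429 probes, since Hmox1 and Gsr each have a pair of probes. All 12 probes passed the filter on dim probes, which kept a probe whose signal stood well above background in 4 or more of the 18 livers, and 19597 genes did so in all. The livers came from male C57BL/6 mice. From 6 weeks of age these mice were fed a diet with 10% (LFD) or 60% (HFD) of its kcal from fat. Methotrexate (MTX), an antifolate drug that blocks dihydrofolate reductase, was injected intraperitoneally at 50 mg/kg. Dosing began after 10 weeks of feeding and ran for 5 rounds, and the liver was taken 1 week after the last of them. Untreated mice numbered 4 on LFD and 4 on HFD, treated mice 5 on each diet (LFD MTX50 and HFD MTX50), and each was measured on 1 one-colour Agilent array. No vehicle injection is named for the untreated mice, so that drug and injection cannot be told apart.

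NRF2 is a basic leucine zipper factor that is held down in resting cells by KEAP1, which hands it to a CUL3 ubiquitin ligase for degradation. When electrophiles or oxidants modify KEAP1, NRF2 accumulates, pairs with a small MAF protein and binds antioxidant response elements in its target genes. Its activity is therefore set largely at the protein level, and the mRNA of Nfe2l2 alone does not report it. The targets fall into groups with separate tasks. Gclc and Gclm encode the catalytic and modifier subunits of glutamate-cysteine ligase, the first step of glutathione synthesis, Slc7a11 the cystine importer that feeds it, and Gsr the reductase that recycles oxidised glutathione. Txnrd1 and Srxn1 serve the thioredoxin and peroxiredoxin cycle, Nqo1 reduces quinones, Hmox1 breaks down haem, and G6pdx supplies NADPH through the pentose phosphate pathway. The liver relies on these enzymes to detoxify drugs and lipid peroxides.

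The core of the antioxidant response element, TGAC followed by any 3 bases and GC, was looked for on both strands from 250 bases before to 50 bases after each annotated start, in RefSeq windows of GRCm38.p6. No other motif was searched. Windows were at hand for 7 of the 10 genes and none was used for Hmox1, Gclc or Gsr. The core was found in 5 of the 7, against 13.99% of the 27025 genes in the table, and in 5 of their 9 windows, against 12.39% of 32851 windows. A match describes the letters only and is not a measured binding site. The matches are shown 5′ to 3′ on the strand of the gene with the core in capitals. They show where these letters lie in the windows searched. In all but Nfe2l2 the core reads on the opposite strand, so that the capitals begin with GC and end with GTCA.
Nfe2l2, chr2:75704885-75704913, minus strand, core beginning 240 bases before the start: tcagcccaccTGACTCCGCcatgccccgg
Gclm, chr3:122245413-122245441, plus strand, 134 bases before the start: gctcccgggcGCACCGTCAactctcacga
Txnrd1, chr10:82859104-82859132, plus strand, 92 bases before 1 of its 3 starts: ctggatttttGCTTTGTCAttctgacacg
G6pdx, chrX:74428919-74428947, minus strand, 57 bases before the start: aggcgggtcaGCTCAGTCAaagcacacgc
Srxn1, chr2:152105542-152105570, plus strand, at base 29 after the start: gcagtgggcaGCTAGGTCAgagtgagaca
The windows of Nqo1 and Slc7a11 hold no match to these letters.

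The 18 arrays were of like quality. The 75th percentile of the signal lay between 1203 and 2263 intensity units, 83.9 to 90.6% of probes were well above background, and the median correlation of an array with the others of its group lay between 0.978 and 0.993. All 6 hepatocyte markers were detected. Their summed level, carried by the brightest of them, lay between 9.34 and 10.0 on the log2 scale in all groups. Single markers did differ. Cps1 was 1.24 lower with the diet and 0.77 lower in HFD MTX50 than in LFD MTX50 (limma adjusted p = 0.00499 and 0.0312). Apoa1 rose by 0.74 with methotrexate in lean mice (limma adjusted p = 0.0278). It was 0.79 lower in HFD MTX50 than in LFD MTX50 (limma adjusted p = 0.0260). The summed erythroid markers were lower in every LFD MTX50 mouse than in any untreated mouse, but the HFD MTX50 mice were divided. Such a sum is carried by the brightest markers, and single ones differed in direction. At a limma adjusted p below 0.05, 1 of the 5 measured was higher and 2 lower with methotrexate in lean mice (median difference 0.15). In obese mice 1 was higher and 0 lower (median difference 0.094). The summed log2 level of the 5 that were measured was 3.99 to 4.51 in LFD, 3.38 to 4.50 in HFD and 0.180 to 0.743 in LFD MTX50. In HFD MTX50 it was 0.525, 0.941 and 1.40 in mice 1, 2 and 3 but 4.44 and 5.78 in mice 4 and 5, so those mice stood apart from every other treated mouse. The same pair had the highest sums of the infiltrating myeloid markers, 6.29 and 6.65, against 4.82 to 5.91 in the other 16 mice. Results of the 10 genes that rest on the HFD MTX50 group are therefore given with and without them, and counts over other gene lists where the omission changes them. All 4 LFD arrays lay on 1 slide and the LFD MTX50 arrays on other slides of their own. HFD and HFD MTX50 shared only slide 5, with 2 arrays each. Slide and group cannot be told apart wherever LFD or LFD MTX50 enters a comparison. In whole liver, fewer cells of a type and less RNA per cell cannot be told apart.

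Levels are given as log2 of a probe's intensity over the 75th percentile of its array, so that a step of 1 is a 2-fold change. Probes differ in how brightly they report, so that a level is compared between groups and never between genes. Called means a limma adjusted p below 0.05, adjusted by Benjamini and Hochberg's method across the 35738 probes kept. Exact permutation tests of the difference in means are two-sided and cannot go below 0.0286 with 4 against 4 mice or below 0.00794 with 5 mice on either side.

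Nfe2l2 itself was highest in lean untreated mice. Its level was 2.60, 2.40, 2.43 and 2.34 in LFD mice 1 to 4. In LFD MTX50 it was 1.54, 1.90, 1.24, 2.54 and 1.38. Mouse 4 of the treated lean mice was within the LFD range and the other 4 were below it. In HFD it was 1.75, 1.92, 2.20 and 1.69, all below the lowest LFD mouse. In HFD MTX50 it was 2.39, 1.26, 1.71, 1.98 and 1.56, with mouse 1 as high as the LFD mice. The group means were 2.44 ± 0.11 (SD, n = 4) in LFD, 1.89 ± 0.23 (SD, n = 4) in HFD, 1.78 ± 0.43 (SD, n = 5) in HFD MTX50 and 1.72 ± 0.52 (SD, n = 5) in LFD MTX50. The last 3 of these lay closer together than their own spread.

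Nqo1, the quinone reductase that is widely used as a readout of NRF2, was lowest in lean untreated mice and highest in LFD MTX50. Its level was -3.33, -3.42, -3.23 and -3.50 in LFD. In LFD MTX50 it was -2.39, -2.56, -2.51, -2.98 and -2.23, above the LFD range in all 5 mice. In HFD it was -2.90, -2.67, -2.80 and -2.87, again above every LFD mouse. In HFD MTX50 it was -2.50, -2.61, -3.11, -2.81 and -3.33, where mice 1 and 2 lay above every HFD mouse and mouse 5 lay within the LFD range. Mean levels ran from -3.37 ± 0.11 (SD, n = 4) in LFD through -2.87 ± 0.34 (SD, n = 5) in HFD MTX50 and -2.81 ± 0.10 (SD, n = 4) in HFD to -2.53 ± 0.28 (SD, n = 5) in LFD MTX50. The difference between the neighbours HFD MTX50 and HFD did not pass the test, and the other neighbours in this order were not compared.

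Gclc, the catalytic subunit of glutamate-cysteine ligase, varied most in the treated mice. It was 4.85, 4.41, 4.93 and 4.90 in LFD. Treated lean mice had 3.42, 3.78, 3.95, 4.71 and 2.15. Mouse 4 lay within the LFD range and mouse 5 far below the other treated mice. Obese untreated mice had 4.60, 4.38, 4.34 and 4.07. Treated obese mice had 4.22, 3.77, 4.59, 4.23 and 2.99, which overlapped HFD in 3 of 5 mice. Gclm, its modifier subunit, was far more even. Its group means were 0.80 ± 0.16 (SD, n = 4) in LFD, 0.56 ± 0.18 (SD, n = 5) in LFD MTX50, 0.64 ± 0.16 (SD, n = 4) in HFD and 0.70 ± 0.31 (SD, n = 5) in HFD MTX50. All mice lay between 0.21 and 0.94.

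Slc7a11, the cystine importer, was close to the background of the array. It was well above background on all LFD, HFD and HFD MTX50 arrays but on 3 of 5 LFD MTX50 arrays. Its level was -5.49, -6.17, -5.97 and -6.40 in LFD. In LFD MTX50 it was -6.11, -5.82, -6.63, -6.94 and -5.01, where mice 3 and 4 were not well above background. In HFD it was -5.73, -5.78, -4.90 and -6.02. The highest levels were in HFD MTX50, at -4.38, -5.11, -4.99, -4.73 and -5.32, of which 2 lay above every mouse of the other groups.

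Gsr, glutathione reductase, was read on the brighter of its probes. It was 4.09, 3.53, 3.56 and 3.31 in LFD. LFD MTX50 mice had 2.77, 2.50, 2.53, 2.56 and 3.50. Mice 1 to 4 were below every LFD mouse and mouse 5 was not. HFD mice had 3.85, 3.38, 3.07 and 2.91. HFD MTX50 mice had 2.79, 3.92, 4.73, 4.68 and 4.18, so that 4 mice lay above every HFD mouse and mouse 1 below every HFD mouse.

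Srxn1 encodes sulfiredoxin, which reactivates overoxidised peroxiredoxins. It was 1.52, 1.71, 1.78 and 1.69 in LFD. In LFD MTX50 it was 1.28, 1.31, 1.47, 1.71 and 1.11, of which 4 were below every LFD mouse. In HFD it was 1.57, 2.14, 2.24 and 2.01. In HFD MTX50 it was 2.74, 1.97, 1.43, 1.75 and 1.89, with mouse 1 highest of all 18 mice. Txnrd1, cytosolic thioredoxin reductase, had nearly the same mean in each group, 1.47 ± 0.13 (SD, n = 4) in LFD, 1.36 ± 0.29 (SD, n = 5) in LFD MTX50, 1.35 ± 0.060 (SD, n = 4) in HFD and 1.35 ± 0.32 (SD, n = 5) in HFD MTX50. Hmox1, read on its brighter probe, had means of 0.76 ± 0.095 (SD, n = 4) in LFD, 0.90 ± 0.29 (SD, n = 5) in LFD MTX50, 0.95 ± 0.11 (SD, n = 4) in HFD and 0.82 ± 0.44 (SD, n = 5) in HFD MTX50. The spread of both genes was wider in the treated groups than in either untreated group.

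G6pdx, glucose-6-phosphate dehydrogenase, opens the oxidative branch of the pentose phosphate pathway. Its level was -1.50, -1.66, -1.25 and -1.96 in LFD. The LFD MTX50 mice had -2.30, -1.66, -2.32, -1.78 and -2.22, with mice 2 and 4 inside the LFD range. The HFD mice had -2.65, -2.72, -2.32 and -2.87, below every LFD mouse. In HFD MTX50 it was -1.97, -2.58, -2.68, -2.39 and -1.77, where mice 1 and 5 lay above every HFD mouse.

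**Figure D1:**
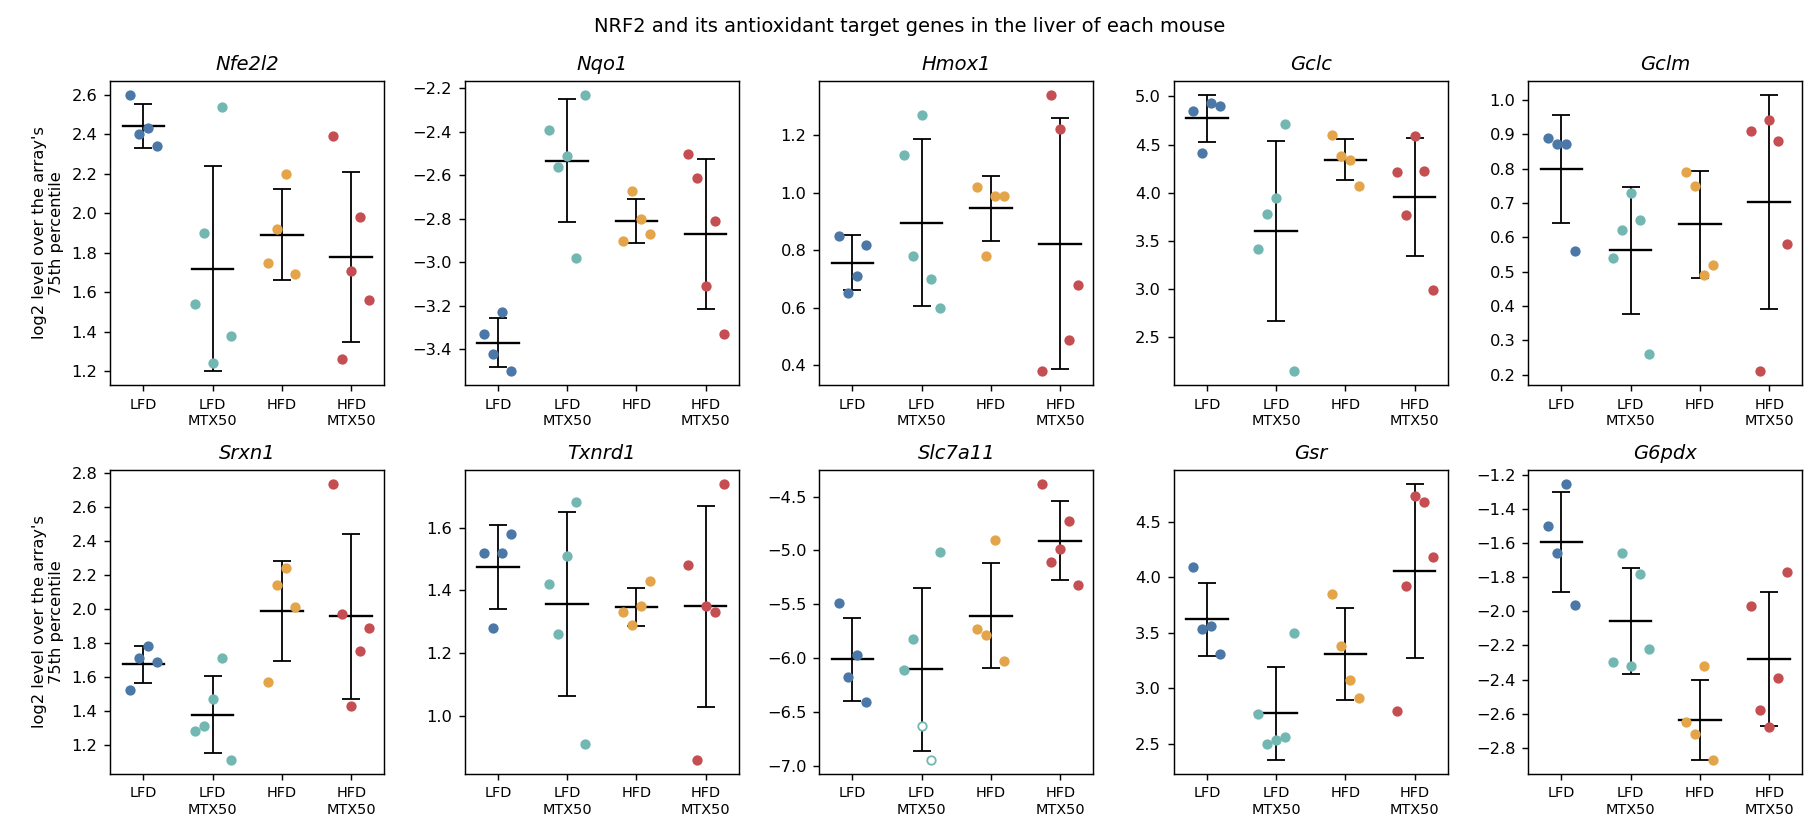
Each panel plots 1 gene, read on its brightest probe, as log2 level over the 75th percentile of the array for every mouse of the 4 groups, with bars for the group mean and error bars for the SD. Filled points are well above background and open points are not. Nqo1 is lowest and Nfe2l2 highest in LFD, G6pdx is lowest in HFD, and Slc7a11 and Gsr are highest in HFD MTX50.

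Methotrexate in lean mice (LFD MTX50 vs LFD) raised Nqo1 and lowered Nfe2l2 and Gclc. Of the 10 genes, 1 was called higher and 2 lower, while over all 19597 genes tested 17.6% were called higher and 10.5% lower, so that the share called was near the background. The median difference of the 10 genes was -0.27 and that of all genes was 0.10. Nqo1 rose by 0.84 ± 0.16 on the log2 scale, or 1.79-fold (SE, limma adjusted p = 0.00353; exact permutation p = 0.0159). It was the 1 member whose groups did not overlap, as was so for 29.1% of all genes. Nfe2l2 fell by 0.72 ± 0.24 (SE, adjusted p = 0.0346 in limma, exact permutation p = 0.0556), and Gclc fell by 1.17 ± 0.38, to a level 2.25-fold lower (SE, adjusted p = 0.0324 in limma, exact permutation p = 0.0317). The differences of Gsr, -0.85 ± 0.33 (SE, limma adjusted p = 0.0639), and G6pdx, -0.46 ± 0.20 (SE, limma adjusted p = 0.0941), did not pass. Gclm differed by -0.24 and Srxn1 by -0.30, also without passing. With the slide as a random block none of the 3 was called, with limma adjusted p of 0.0513 for Nqo1, 0.187 for Nfe2l2 and 0.127 for Gclc. Nqo1 was called whichever array was left out. The call of Nfe2l2 was lost when any 1 of the 4 LFD mice was left out, or any of mice 1, 3 and 5 of LFD MTX50 (limma adjusted p 0.0540 to 0.0877), and that of Gclc without mouse 1, 3 or 4 of LFD or mouse 1 or 5 of LFD MTX50 (limma adjusted p 0.0566 to 0.0743). Gsr, in turn, was called on its brighter probe at -1.03 without LFD MTX50 mouse 5 (limma adjusted p = 0.0336). That was the 1 treated lean mouse that lay within the LFD range. On the dimmer Gsr probe the difference in all mice was -0.016 (limma adjusted p = 0.925).

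The high fat diet alone (HFD vs LFD) raised Nqo1 and lowered G6pdx. That is 1 of 10 genes called in each direction, beside 18% of all genes called higher and 10.4% lower. The members' median difference was -0.14 and that of all genes 0.080. Nqo1 rose by 0.56 ± 0.17, or 1.48-fold (SE, limma adjusted p = 0.0252), and G6pdx fell by 1.05 ± 0.22, to a level 2.06-fold lower (SE, limma adjusted p = 0.00522). Each had an exact permutation p of 0.0286, the smallest that 4 against 4 mice can give. Nfe2l2 was lower in each HFD mouse than in any LFD mouse, but its difference of -0.55 ± 0.25 (SE) missed the threshold (limma adjusted p = 0.108, exact permutation p = 0.0286). These 3 genes did not overlap between the diets, and neither did 40.3% of all genes. Nfe2l2 was called when only the LFD and HFD arrays were fitted (limma adjusted p = 0.0127). Srxn1 differed by 0.31 and Slc7a11 by 0.40, without passing. With the slide as a random block neither gene was called, with limma adjusted p of 0.159 for Nqo1 and 0.0644 for G6pdx. The call of Nqo1 was also lost after quantile normalisation, where the difference was 0.35 (limma adjusted p = 0.101), and without LFD mouse 2 or 4 or HFD mouse 2, 3 or 4 (limma adjusted p 0.0551 to 0.0658), while G6pdx was called whichever array was left out.

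Methotrexate in obese mice (HFD MTX50 vs HFD) left all 10 genes without a call. Over all genes 4.83% were called higher and 6.13% lower. The median difference was -0.015 among the members and -0.040 over all genes. After adjustment limma and the methods' t-test each passed 0 genes. At an unadjusted p below 0.05, limma passed 1, Gsr. Gsr was 0.76 ± 0.33 higher (SE, 95% confidence interval 0.050 to 1.46, limma adjusted p = 0.134) and Slc7a11 0.70 ± 0.33 higher (SE, 95% confidence interval -0.0015 to 1.40, limma adjusted p = 0.161). Nqo1 differed by -0.061 with an interval of -0.41 to 0.28, Nfe2l2 by -0.11 with -0.62 to 0.39, and Gclc by -0.39 with -1.20 to 0.42. No gene was without overlap between these groups, against 11.4% of all genes. Within slide 5, the one that held both groups, the difference was 0.36 for Gsr, 0.72 for Slc7a11 and 0.28 for Nqo1. With slide as a fixed block the limma adjusted p was 0.597, 0.326 and 0.428 for these 3. Gsr was called on its brighter probe without HFD MTX50 mouse 1, at 1.07 (limma adjusted p = 0.0206). Without mice 4 and 5 that probe gave 0.51 (limma adjusted p = 0.450) and 0 of the 10 genes were called. On the dimmer Gsr probe the difference in all mice was 0.064 (limma adjusted p = 0.729).

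Between the treated groups (HFD MTX50 vs LFD MTX50), Slc7a11 and Gsr were higher in the obese mice, Gsr on its brighter probe alone. They were 2 of 10 genes called higher and 0 lower, beside 7.37% of all genes higher and 8.75% lower. The dimmer Gsr probe differed by -0.080 (limma adjusted p = 0.624). The members' median difference was 0.10 and that of all genes -0.064. Slc7a11 rose by 1.19 ± 0.31, or 2.29-fold (SE, limma adjusted p = 0.0200), and Gsr rose by 1.29 ± 0.32, or 2.44-fold (SE, limma adjusted p = 0.0157). Their exact permutation p was 0.0238 and 0.0159. The groups overlapped for Slc7a11 through LFD MTX50 mouse 5 and for Gsr through that mouse and HFD MTX50 mouse 1. None of the 10 genes was free of overlap, against 6.10% of all genes. The summed infiltrating myeloid markers, of which 5 of 6 were measured and Ly6c2 had no probe named here, were 4.82 to 5.41 in LFD MTX50 and 5.24 to 6.65 in HFD MTX50, and their part in these differences was not tested. Srxn1 was 0.58 ± 0.19 higher (SE, limma adjusted p = 0.0504, exact permutation p = 0.0317), just outside the threshold. It was called under 4 of the other settings and without LFD MTX50 mouse 4, HFD mouse 1 or HFD MTX50 mouse 3 (limma adjusted p 0.0331 to 0.0489). Nqo1 was 0.34 lower (limma adjusted p = 0.133). Without HFD MTX50 mice 4 and 5 no member was called, with 1.27 (limma adjusted p = 0.0644) for Slc7a11 and 1.04 (limma adjusted p = 0.0949) for Gsr, and over all genes 1.75% were then called higher and 2.39% lower. The random slide block gave limma adjusted p of 0.171 for Slc7a11 and 0.116 for Gsr. Slc7a11, so near background, was 0.31 (limma adjusted p = 0.0651) with normexp background correction and was not called without LFD MTX50 mouse 3 (1.06, limma adjusted p = 0.0551) or HFD MTX50 mouse 4 (1.15, limma adjusted p = 0.0510).

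**Figure D2:**
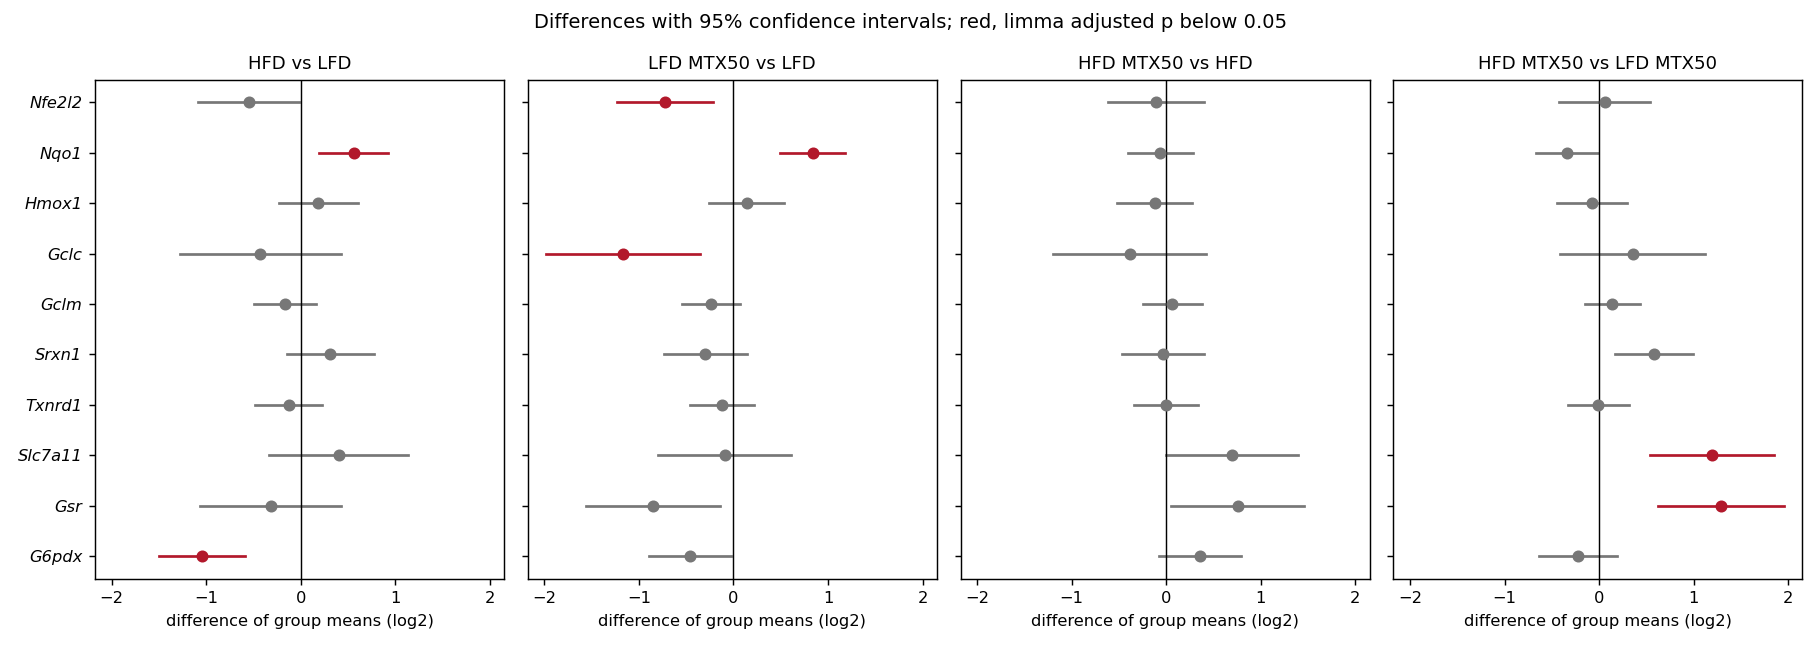
Each panel is 1 comparison and plots the difference of group means on the log2 scale for the 10 genes, with 95% confidence intervals from limma and red for an adjusted p below 0.05. Red marks Nqo1 and G6pdx for the diet, Nfe2l2, Nqo1 and Gclc for methotrexate in lean mice, no gene for methotrexate in obese mice, and Slc7a11 and Gsr between the treated groups. Gsr is read on its brighter probe, and the dimmer was not called there.

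The response to methotrexate differed between the diets for Nqo1, G6pdx and, on its brighter probe alone, Gsr. In this interaction, the effect in HFD mice minus the effect in LFD mice, 2 of 10 genes were called higher and 1 lower, while 8.66% of all genes were called higher and 18.1% lower. The median interaction was 0.45 among the members and -0.11 over all genes. Nqo1 had an effect of 0.84 in lean and -0.061 in obese mice, an interaction of -0.90 ± 0.23 (SE, limma adjusted p = 0.0130). For Gsr the effects were -0.85 and 0.76 and the interaction 1.61 ± 0.47 (SE, limma adjusted p = 0.0216). For G6pdx they were -0.46 and 0.36, with an interaction of 0.82 ± 0.29 (SE, limma adjusted p = 0.0442). These values share all 4 groups with the comparisons above and are no separate evidence for them. With the slide as a random block none was called (limma adjusted p 0.0686 for Nqo1, 0.0999 for Gsr and 0.158 for G6pdx). Without HFD MTX50 mice 4 and 5 only Nqo1 was called, at -0.77 (limma adjusted p = 0.0384), beside 1.36 (limma adjusted p = 0.0757) for Gsr and 0.69 (limma adjusted p = 0.112) for G6pdx. Gsr missed the threshold without HFD mouse 3 (1.53, limma adjusted p = 0.0506) or HFD mouse 4 (1.47, limma adjusted p = 0.0523). G6pdx missed it when any of 12 arrays was left out (0.70 to 0.85), and was called without mouse 4 of LFD, mouse 2 or 4 of LFD MTX50, mouse 3 of HFD, or HFD MTX50 mouse 2 or 3. Nfe2l2, at 0.61 in all mice (limma adjusted p = 0.186), was called at 0.81 without LFD MTX50 mouse 4 (limma adjusted p = 0.0402).

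The pair of probes for Gsr did not tell the same story. On the dimmer probe the levels were 0.39 ± 0.066 (SD, n = 4) in LFD, 0.38 ± 0.23 (SD, n = 5) in LFD MTX50, 0.23 ± 0.049 (SD, n = 4) in HFD and 0.30 ± 0.16 (SD, n = 5) in HFD MTX50. Between the treated groups it differed by -0.080 ± 0.11 (SE, limma adjusted p = 0.624), where the brighter probe rose by 1.29. The interaction was 0.080 ± 0.16 (SE, limma adjusted p = 0.732), where the brighter probe gave 1.61. With the mean of both probes in place of the brighter, Gsr was 0.60 higher between the treated groups (limma adjusted p = 0.0279) and its interaction was 0.84 (limma adjusted p = 0.0255). The calls on Gsr therefore rest on the brighter probe. The probes of Hmox1 were closer. On the dimmer of them the difference was 0.30 ± 0.18 for HFD vs LFD and 0.34 ± 0.17 for LFD MTX50 vs LFD (SE, limma adjusted p = 0.223 and 0.147), where the brighter probe gave 0.19 and 0.14, and no comparison was called on either.

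**Figure D3:**
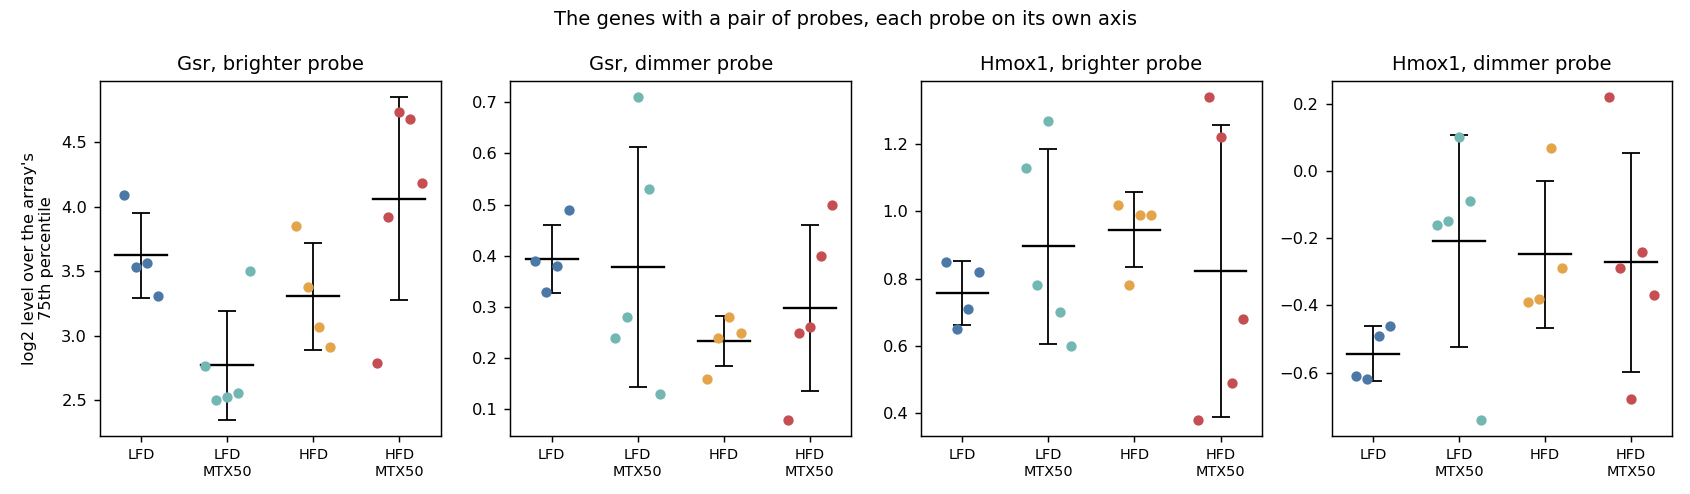
The log2 level over the array's 75th percentile of every mouse is drawn for each probe of Gsr and Hmox1 on an axis of its own, with bars for group means and error bars for the SD. The brighter Gsr probe spans 2.50 to 4.73 with its highest values in HFD MTX50, while the dimmer spans 0.08 to 0.71 with no such rise.

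The 10 genes did not move as 1 block from mouse to mouse. After group means were removed, the 45 pairs of genes had a median Pearson r of 0.011 over the 18 mice, and 22 of the 45 were negative. Only 5 pairs exceeded 0.5, namely Nqo1 with Slc7a11 (0.63), Gclc with Gclm (0.59), and Nfe2l2 with G6pdx (0.57), Gclc (0.55) and Srxn1 (0.54). The subunits of glutamate-cysteine ligase were thus among the most closely linked. At the other end lay Srxn1 with Gsr (-0.88), Nqo1 with Txnrd1 (-0.64), Nfe2l2 with Hmox1 (-0.59) and Hmox1 with G6pdx (-0.54). Gsr was read here on its brighter probe only. HFD MTX50 mouse 1 held the highest Srxn1 of all 18 mice, 2.74, and the lowest Gsr of its group, 2.79. The points share arrays and their scaling, so these values are a description.

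**Figure D4:**
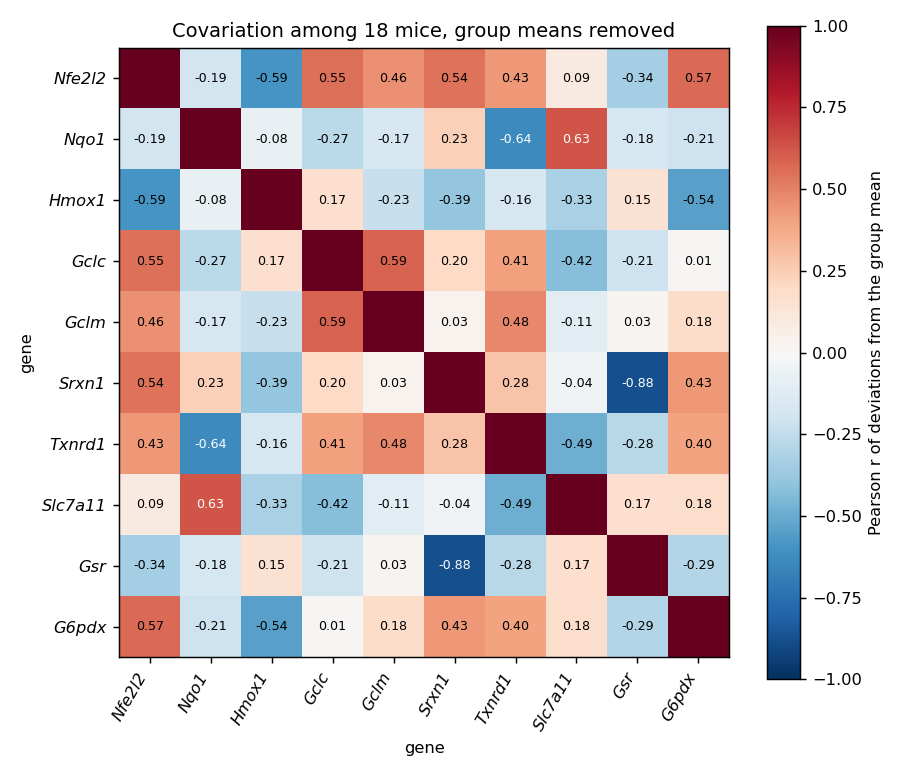
The matrix gives Pearson r over 18 mice between each pair of genes after the 4 group means were removed, from blue at -1 to red at 1. Most cells are pale, Gclc and Gclm stand out at 0.59, and Srxn1 and Gsr, on its brighter probe, at -0.88.

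Outside the set, the gene most like each member over the 18 arrays, with group differences kept, was Slc66a2 for Nfe2l2 (Pearson r = 0.91), Mcpt-ps1 for Nqo1 (0.92), Cd3e for Hmox1 (0.94), L3hypdh for Gclc (0.89) and Mtx3 for Gclm (0.84). It was Ly6d for Srxn1 (0.91), Abhd17c for Txnrd1 (0.90), Aldh1l2 for Slc7a11 (0.90), Was for Gsr (0.98) and Calm2 for G6pdx (0.92). Each is the highest among the genes tested and is given as a description. Cd3e is a T cell receptor component and Was a gene of blood cells. The next most alike was Tle4 for Hmox1 (0.90) and Mybbp1a for Gsr (0.98), and the cells behind these values were not tested. Hmox1 and Gsr were read on their brighter probes only.

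Of 9 measured regulators of NRF2, 1 rose and 0 fell with methotrexate in lean mice, beside 17.6% and 10.5% of all genes. With the diet 0 rose and 2 fell, beside 18% and 10.4% of all genes. With methotrexate in obese mice 0 were called, beside 4.83% of all genes higher and 6.13% lower. Between the treated groups 0 rose and 1 fell, beside 7.37% and 8.75% of all genes. Keap1, the inhibitor of NRF2, rose by 0.32 ± 0.11 with methotrexate in lean mice (SE, limma adjusted p = 0.0351) and was lower in HFD MTX50 than in LFD MTX50 at -0.40 ± 0.10 (SE, limma adjusted p = 0.0165). Cul3 and Rbx1, the scaffold and RING subunits of the ligase that KEAP1 serves, fell with the diet by 0.41 ± 0.11 and 0.28 ± 0.088 (SE, limma adjusted p = 0.0132 and 0.0267). The median difference of the 9 with the diet was -0.12, beside 0.080 over all genes. With the random slide block no regulator was called in any comparison. After quantile normalisation, and with normexp, the diet left 1 lower. In obese mice 1 was called higher with methotrexate under normexp and under scaling to the median of bright probes. The rise with methotrexate in lean mice was lost with scaling to the median of bright probes, and without HFD MTX50 mice 4 and 5 no regulator was called between the treated groups.

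Among 15 genes of glutathione and thioredoxin use, 4 rose and 2 fell with methotrexate in lean mice and 3 rose and 0 fell with the diet. Over all genes 17.6% were called higher and 10.5% lower with methotrexate in lean mice, and 18% and 10.4% with the diet. Chac1, a glutathione-degrading enzyme of the stress response, rose by 1.40 ± 0.23 and by 1.08 ± 0.24 in these comparisons (SE, limma adjusted p = 0.00137 and 0.00690). Gpx3, the secreted glutathione peroxidase, rose by 0.95 ± 0.32 and by 1.14 ± 0.33 (SE, limma adjusted p = 0.0346 and 0.0205), and Gss, glutathione synthetase, rose by 0.91 ± 0.31 with methotrexate in lean mice (SE, limma adjusted p = 0.0395). Its LFD values were widely scattered, at -0.95 ± 0.95 (SD, n = 4) against -0.046 ± 0.27 (SD, n = 5) in LFD MTX50. Txn1, thioredoxin, fell with methotrexate in lean mice by 0.40 ± 0.11 (SE, limma adjusted p = 0.0184). With methotrexate in obese mice 0 rose and 1 fell, beside 4.83% and 6.13% of all genes. Between the treated groups 2 rose and 0 fell, beside 7.37% and 8.75% of all genes. The list medians of these comparisons lay between -0.069 and 0.069, and those of all genes between -0.064 and 0.10. Counts of this list depended on the setting. With methotrexate in lean mice they were 1 higher and 1 lower after quantile normalisation, 1 and 3 with scaling to the median of bright probes, and 1 and 0 with the random slide block, which left 0 in every other comparison. Without HFD MTX50 mice 4 and 5, 0 were higher and 1 was lower between the treated groups.

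Of 7 other genes of NADPH supply, 0 rose and 4 fell with methotrexate in lean mice, beside 17.6% and 10.5% of all genes. The median difference of the list was -0.55, beside 0.10 over all genes. Me1, malic enzyme, fell by 1.58 ± 0.39 (SE, limma adjusted p = 0.0102), Pgd, phosphogluconate dehydrogenase, by 0.91 ± 0.30 (SE, limma adjusted p = 0.0350) and Taldo1, transaldolase, by 0.55 ± 0.15 (SE, limma adjusted p = 0.0164). In obese mice 1 rose and 1 fell with methotrexate, beside 4.83% and 6.13% of all genes. Tkt, transketolase, fell there by 0.75 ± 0.17 (SE, limma adjusted p = 0.0146). With the diet 0 rose and 1 fell, beside 18% and 10.4% of all genes. Between the treated groups none of the list was called, beside 7.37% of all genes higher and 8.75% lower. The number called lower in lean mice was 2 after quantile normalisation, 5 with scaling to the median of bright probes and 0 with the random slide block, and the fall with the diet was lost with quantile normalisation, normexp and the block. In obese mice 0 were higher and 2 lower both after quantile normalisation and without HFD MTX50 mice 4 and 5, where the list median was -0.53 and -0.55 in place of -0.30.

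Detoxification genes linked to NRF2 included several that fell with methotrexate on either diet. Of 17 measured, 1 rose and 5 fell in lean mice and 0 rose and 6 fell in obese mice, and their median differences were -0.26 and -0.49. All genes had medians of 0.10 and -0.040. Their shares called higher and lower were 17.6% and 10.5% in lean mice, and 4.83% and 6.13% in obese mice. Gsta1 had no probe named here. Gstp1, a glutathione S-transferase whose near-identical paralogs may share its probe, fell by 2.06 ± 0.32 in lean mice (SE, limma adjusted p = 0.00121) and differed by 0.23 ± 0.32 in obese mice (SE, limma adjusted p = 0.650). It also fell by 1.27 ± 0.34 with the diet (SE, limma adjusted p = 0.0146). The interaction of Gstp1 was 2.29 ± 0.46 (SE, limma adjusted p = 0.00588). Gsta2 fell by 1.59 ± 0.47 in lean and by 1.55 ± 0.47 in obese mice (SE, limma adjusted p = 0.0208 and 0.0428), and Gstm3 by 0.91 ± 0.32 and by 1.40 ± 0.32 (SE, limma adjusted p = 0.0455 and 0.0178). Gstm2 fell by 1.10 ± 0.27 in obese mice (SE, limma adjusted p = 0.0206). These transferases have close paralogs too. With the diet 1 rose and 1 fell, beside 18% and 10.4% of all genes. Between the treated groups 3 rose and 2 fell, beside 7.37% and 8.75% of all genes. The falls in obese mice numbered 5 with the random slide block and 3 without HFD MTX50 mice 4 and 5, and those in lean mice numbered 3 with the block. Between the treated groups 1 was higher and 1 lower without those mice, and with the block none was called there or with the diet.

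In haem and iron handling, 1 of 8 genes rose and 2 fell with methotrexate in lean mice, and 1 rose and 0 fell in obese mice. The list medians were 0.048 and 0.18, beside 0.10 and -0.040 over all genes. Called higher and lower were 17.6% and 10.5% of all genes in lean mice, and 4.83% and 6.13% in obese mice. The gene that rose was Slc40a1, the iron exporter ferroportin, by 0.91 ± 0.14 in lean and by 0.81 ± 0.14 in obese mice (SE, limma adjusted p = 0.00122 and 0.00780), and it was lower in HFD MTX50 than in LFD MTX50 at -0.51 ± 0.14 (SE, limma adjusted p = 0.0226). This was the 1 gene of the list called in the last comparison, where 8.75% of all genes were called lower. No gene of the list was called there without HFD MTX50 mice 4 and 5 or with the random slide block. Fth1, the ferritin heavy chain, fell by 0.42 ± 0.098 and Blvrb, biliverdin reductase B, by 0.42 ± 0.15 in lean mice (SE, limma adjusted p = 0.00800 and 0.0485). With the diet 0 rose and 2 fell, beside 18% and 10.4% of all genes. Fech, ferrochelatase, was among the 2 that fell, by 0.37 ± 0.12 (SE, limma adjusted p = 0.0293). Quantile normalisation and the random slide block each left 0 called lower with methotrexate in lean mice and 0 with the diet. The erythroid marker sums given above were lower in LFD MTX50 than in LFD in all mice, and their part in these values was not tested.

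Of 6 genes that remove superoxide and peroxide, 0 rose and 3 fell with methotrexate in lean mice, 0 rose and 1 fell with the diet, and none was called in the other comparisons of groups. The list median was -0.30 with methotrexate in lean mice and -0.24 with the diet, beside 0.10 and 0.080 over all genes. Of all genes 17.6% were called higher and 10.5% lower in the first of these, and 18% and 10.4% in the second. The shares were 4.83% and 6.13% with methotrexate in obese mice, and 7.37% and 8.75% between the treated groups. Cat, catalase, fell by 0.73 ± 0.15, Msra, methionine sulfoxide reductase A, by 0.37 ± 0.12 and Prdx5, peroxiredoxin 5, by 0.26 ± 0.095 (SE, limma adjusted p = 0.00413, 0.0290 and 0.0465). Sod1, the cytosolic superoxide dismutase, fell by 0.28 ± 0.093 with the diet (SE, limma adjusted p = 0.0322). After quantile normalisation 1 was called lower in lean mice. The number was 5 with scaling to the median of bright probes and 1 with the random slide block. With the diet it was 0 after quantile normalisation, with normexp and with the block. Scaling to the median of bright probes gave 1 called higher between the treated groups.

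**Figure D5:**
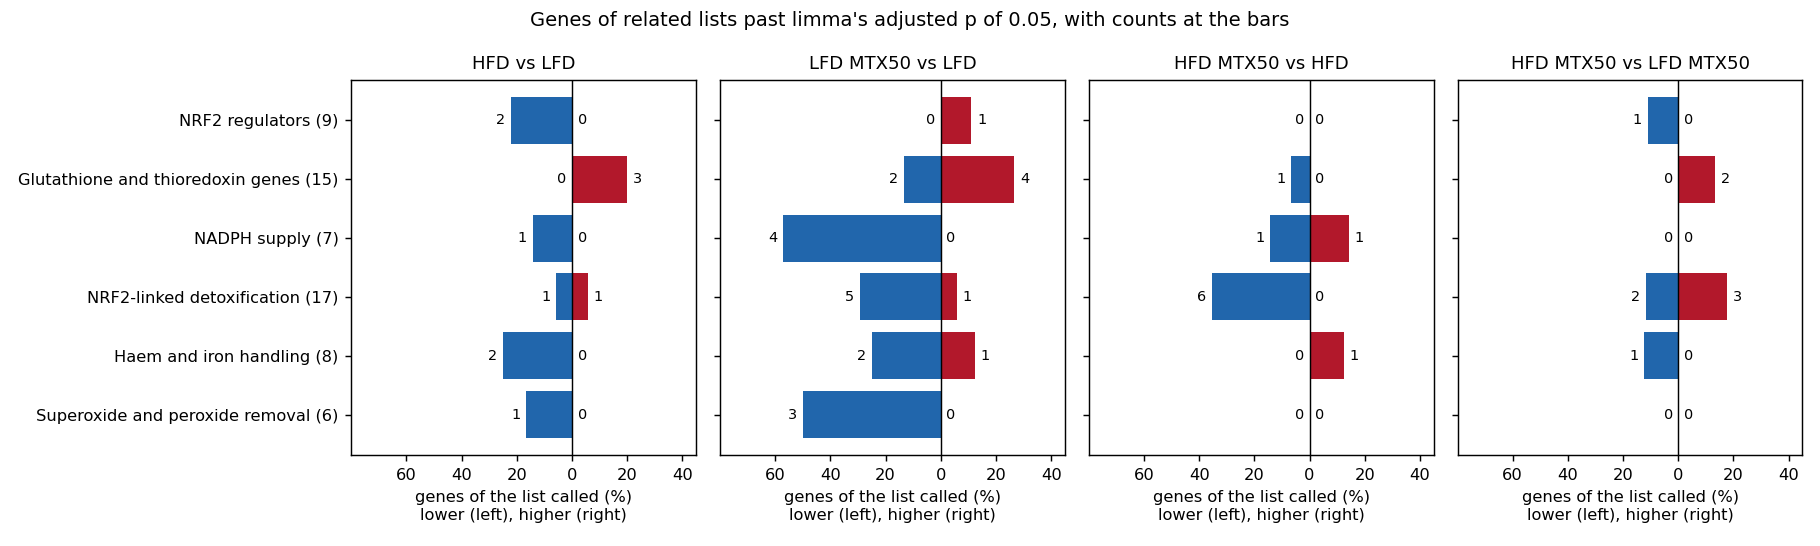
Each panel is 1 comparison, and bars give the percent of measured genes of each list (its number in brackets) called lower to the left in blue or higher to the right in red, with the counts at the bars. With methotrexate in lean mice 4 of 7 NADPH genes and 3 of 6 superoxide and peroxide genes fell, and in obese mice 6 of 17 detoxification genes fell. Of all genes 10.5% were called lower with methotrexate in lean mice and 6.13% in obese mice.

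The scale itself moved part of the balance. The median of all genes shifted by more than 0.1 in the contrast LFD MTX50 vs LFD, from 0.10 after the 75th percentile to -0.0023 after quantile normalisation, and in the interaction from -0.11 to 0.0044. The share of called genes that were higher went from 63.4% to 45.6% for HFD vs LFD, from 62.7% to 44.8% for LFD MTX50 vs LFD and from 32.4% to 47.1% for the interaction. With scaling to the median of bright probes it was 44.8%, 44.7% and 51.0% in these, and 55.7% in place of 45.7% between the treated groups, and with normexp it was 50.7% for HFD vs LFD and 55.3% in place of 44.04% for HFD MTX50 vs HFD. No called member had another sign under any of these scalings.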

How the data were processed

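RNA from the liver of each of 18 separate mice was hybridised to a one-colour Agilent array. Labels name Trizol with RNeasy and the Low RNA Input Linear Amplification Kit, whereas the study's methods name RNeasy and a Quick Amp kit. The deposited scanner files hold, per spot, the processed signal intensity, already background-subtracted and detrended by the authors with Agilent Feature Extraction 10.7.3.1 (per the submitters' processing notes) but not normalised between arrays. The normalisation the authors used afterwards is not given in the sources used here. The deposited value table of the series equals the background-subtracted signal and served as an alternative.

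Control spots and outlier spots (124 to 294 per array) were left out, spots of a probe were averaged, and log2 intensity minus the array's 75th percentile was taken. No probe of the arrays was saturated. Of 39429 probes, 28025 (71.08%) were named through the deposited accession and RefSeq gene tables, and the 35738 kept had a signal well above background in 4 or more livers (347 with a missing value on some array). Each gene was read on its brightest probe. Groups came from the labels. A 4-group fit in limma 3.58.1 (R 4.3.3) gave the comparisons, with Benjamini-Hochberg adjustment over the kept probes and a threshold of 0.05. The code was tested on simulated data.

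The members and 6 gene lists were chosen with earlier results of these data known. All members are named. From each list at most 4 called genes are named, by size of difference. Replicate numbers did not pair the mice, since deviations of same-numbered mice correlated between -0.31 and 0.25 and exceeded 0.1 in 6 of 25 pairs. Alternatives covered background, scaling, filter, outlier spots, probes per gene, variance model, Student's t-test, slide, replicate block and single arrays. The omission of HFD MTX50 mice 4 and 5, the slide held by both HFD groups and a normexp fit were chosen after seeing the data. The planned normexp fit on mean spot signals was not run because that column was not used here. The fit on median signals needed 127 stray local backgrounds, over 5 times the array median, to be reset on 12 arrays. The number of arrays limits the precision.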

Additional observations from a re-analysis of the deposited data

Results flagged for a closer look

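Among 48 sets of values of 1 probe in 1 group, 4 held a mouse far from the others of its group, and chance alone gives about 5%. For Hmox1 it was HFD mouse 2, at 0.78 where the other 3 lay between 0.99 and 1.02. For Gclc it was LFD mouse 2, at 4.41 against 4.85 to 4.93. For Gclm it was LFD mouse 4, at 0.56 against 0.87 to 0.89. For Gsr it was LFD MTX50 mouse 5, at 3.50 against 2.50 to 2.77, and this mouse also had the lowest Gclc of all 18 mice, 2.15.

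The effect of methotrexate differed between the diets for 3 genes by the interaction term in limma. The interaction was -0.898 for Nqo1, with an effect of 0.84 in lean and -0.061 in obese mice. It was 1.605 for Gsr on its brighter probe and 0.080 on the dimmer. For G6pdx it was 0.8221, from effects of -0.46 and 0.36. None of the 3 passed when slide entered as a random block.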

How the results depend on the processing

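The counts of called members were 2 for HFD vs LFD, 3 for LFD MTX50 vs LFD, 0 for HFD MTX50 vs HFD, 2 for HFD MTX50 vs LFD MTX50 and 3 for the interaction. No call changed direction under any setting. Of 1635 values of a member in a comparison under another setting or without 1 array, 1556 kept their side of the threshold, 64 lost it and 15 gained it, and 52 values that were never called took another sign. Quantile normalisation gave 1 for HFD vs LFD and 1 for LFD MTX50 vs LFD, as did the demand for a 2-fold change (1 and 1). Student's t-test with adjustment and the fit of only the 2 groups compared each gave 0 for HFD MTX50 vs LFD MTX50. With the slide as a random block the count was 0 in every comparison. Without HFD MTX50 mice 4 and 5 it was 0 for HFD MTX50 vs LFD MTX50 and 1 for the interaction. Leaving out 1 array at a time gave 1 to 2 for HFD vs LFD, 1 to 4 for LFD MTX50 vs LFD, 0 to 1 for HFD MTX50 vs HFD, 1 to 3 for HFD MTX50 vs LFD MTX50 and 1 to 4 for the interaction. The replicate number as a block, although the numbers do not pair the mice, gave 2, 2, 0, 2 and 2 in the order of the first sentence, where Nfe2l2 in LFD MTX50 vs LFD (limma adjusted p = 0.0701) and G6pdx in the interaction (0.0714) were lost. Apart from the settings that use fewer arrays or ask for a larger fold, the cause was not tested. Signal over background limits Slc7a11, which was not well above background on 2 arrays.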
